A study of Mus musculus with 2 samples.

Results

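The genes described here carry glucose from the blood to pyruvate and lactate, or set how much pyruvate goes on to the mitochondria. They are 33 of the 43346 mouse genes in the tables, chosen by name from the known pathway and found by matching gene identifiers to the mouse GENCODE annotation. Both libraries came from whole hearts of B6NCrl mice on postnatal day 0, 1 heart each and with no treatment named, from pup 1 (replicate 1) and pup 3 (replicate 2), and both are labelled with 1 donor identifier. Each library was made by a Smart-seq protocol, which amplifies cDNA from very little RNA, from 13 pg of RNA longer than 200 nt, an amount equal to 1 cell. There is 1 group and no control, so values are given for each library and as mean ± SD (n = 2), with no p-value. A difference between the libraries can lie between hearts, between aliquots or in amplification, and these cannot be told apart.

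Glucose enters heart muscle through membrane transporters and is trapped by hexokinase. The reactions of glycolysis then split it into pyruvate with a net gain of ATP, and lactate dehydrogenase interconverts pyruvate and lactate. The heart around birth is known for its reliance on glycolysis and lactate, and for turning to fatty acids in the weeks that follow. Many steps are served by more than 1 isozyme, an enzyme form from a gene of its own, and muscle forms commonly replace the forms of other tissues as muscle matures.

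Levels are in TPM, transcripts per 1000000, which divides reads by transcript length and so allows genes to be compared. Expected counts on mouse genes totalled 39671930 and 32751851 in replicates 1 and 2, and the 33 genes took 951761 and 772218 of them. The hearts' identity was checked by marker genes. All 8 cardiomyocyte markers were read, with a summed level of 43748 and 71706 TPM. Red cell markers summed to 5668 and 5624 TPM, and endothelial markers to 1331 and 1369 TPM. Of 8 skeletal muscle markers, 5 were at 0 in both libraries (Myh1, Myh3, Myh8, Tnnt3 and Tnni2), and the summed level of 4682 and 4098 TPM lay mostly on Ckm, which heart muscle also expresses. In whole tissue, fewer cells of a type and less RNA per cell cannot be told apart.

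Pyruvate kinase makes pyruvate from phosphoenolpyruvate, and the gene Pkm makes its M1 and M2 forms by using 1 of a pair of mutually exclusive exons. M1 is the form of adult muscle, heart and brain, and M2 that of many fetal and dividing tissues. The exons are shown because the share of each form rests on reads that tell them apart. Both are 167 nt long and lie on the plus strand of chromosome 9 in mm10, the M1 exon at chr9:59675029-59675195 and the M2 exon at chr9:59675568-59675734. Each is exon 9 of 11 in its transcript, Pkm-202 for M1 and Pkm-201 for M2. Sequences are from the GENCODE M21 transcripts, 5′ to 3′, and capitals mark the 64 positions at which the exons differ.
Pkm M1 exon: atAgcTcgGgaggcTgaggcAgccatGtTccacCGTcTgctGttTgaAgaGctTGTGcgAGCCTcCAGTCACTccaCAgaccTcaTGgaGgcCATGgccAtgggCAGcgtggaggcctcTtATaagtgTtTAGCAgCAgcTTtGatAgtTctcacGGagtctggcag
Pkm M2 exon: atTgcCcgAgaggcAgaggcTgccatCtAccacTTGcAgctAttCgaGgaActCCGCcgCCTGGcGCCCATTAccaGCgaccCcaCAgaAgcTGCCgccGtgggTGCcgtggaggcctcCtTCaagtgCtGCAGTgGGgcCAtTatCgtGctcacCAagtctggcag
The exons were identical at 61.7% of positions, with differences spread along their whole length.

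A similar question arises for isozymes from separate genes, whose coding sequences are related. Effective lengths in the tables were 99 nt below transcript length, so the most similar stretch of 100 aligned coding bases was found for each isozyme pair. The pairs shown are those of phosphoglycerate mutase, with 1 form far above the other, and of enolase and lactate dehydrogenase, with both forms abundant. Capitals mark the bases at which the members of a pair differ, and positions count from the first base of the coding sequence.
Pgam1, coding bases 608 to 707: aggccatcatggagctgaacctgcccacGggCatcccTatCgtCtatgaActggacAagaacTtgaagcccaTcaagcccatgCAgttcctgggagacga
Pgam2, coding bases 608 to 707: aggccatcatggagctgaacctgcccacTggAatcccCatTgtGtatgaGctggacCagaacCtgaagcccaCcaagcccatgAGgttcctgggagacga
Eno1, coding bases 586 to 685: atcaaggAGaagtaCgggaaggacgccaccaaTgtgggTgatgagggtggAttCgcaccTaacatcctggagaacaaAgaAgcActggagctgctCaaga
Eno3, coding bases 586 to 685: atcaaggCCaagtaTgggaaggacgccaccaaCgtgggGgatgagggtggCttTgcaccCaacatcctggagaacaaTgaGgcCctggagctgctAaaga
Ldha, coding bases 294 to 393: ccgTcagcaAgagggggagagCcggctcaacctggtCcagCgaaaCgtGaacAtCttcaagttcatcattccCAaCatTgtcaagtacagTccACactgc
Ldhb, coding bases 297 to 396: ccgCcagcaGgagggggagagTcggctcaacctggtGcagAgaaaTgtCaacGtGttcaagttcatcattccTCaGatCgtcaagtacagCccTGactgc
Even these stretches held 11 differences for Pgam1 and Pgam2, 12 for Eno1 and Eno3 and 16 for Ldha and Ldhb, and over the full coding sequence identity was 74.4%, 76.7% and 71.1%. Such a stretch was found for 23 of the 25 pairs, those of Gpd2 left out, and the smallest number of differences among them was 9.

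Of the 33 chosen genes, 27 reached 1 TPM in each library, beside 28.4% of the 21474 protein-coding genes. Pfkfb1 and Gpd2 reached this level in 1 library. Slc2a3, Pfkfb3, Eno2 and Gpd1 did so in neither. The 33 were chosen with earlier results of these data known, so this contrast does not describe the pathway as a whole. Of 29 other pathway genes, described below, 8 reached 1 TPM in each library and 17 had 0 counts in both. The 33 genes held 2.03% of TPM in replicate 1 and 2.01% in replicate 2 (2.02 ± 0.017%), and 8 of them ranked among the top 100 protein-coding nuclear genes by mean level. Their median level was 69.2 TPM, with 11 averaging at least 300 TPM, 16 between 5 and 300 TPM and 6 below 5 TPM.

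**Figure D1:**
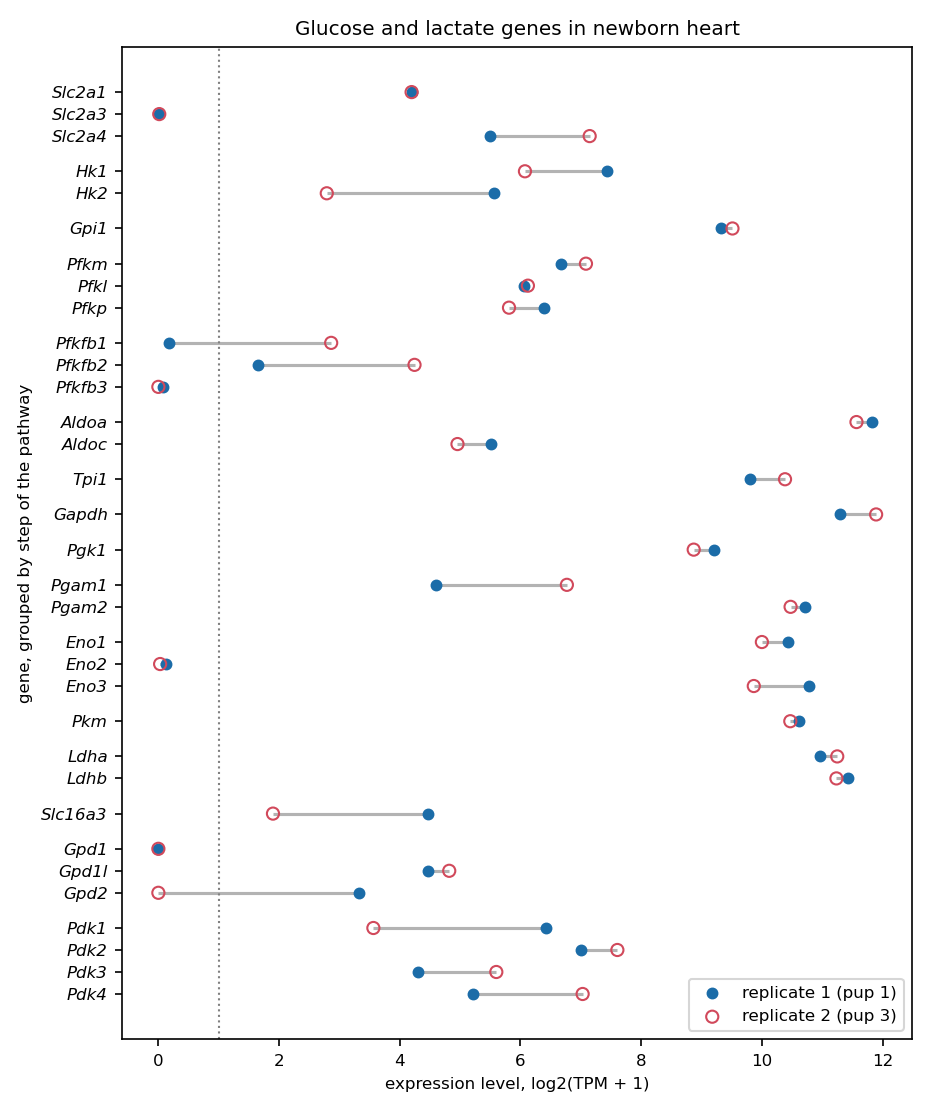
Level of each of the 33 genes on a log2(TPM + 1) axis, grouped by step, with filled points for replicate 1, open points for replicate 2 and a grey line joining them; the dotted line marks 1 TPM. The 11 genes above 300 TPM have points close together, while several genes of uptake, hexokinase, phosphofructokinase 2 and pyruvate dehydrogenase kinase have points far apart.

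Uptake was led by Slc2a4, which encodes GLUT4, the transporter that insulin brings to the muscle surface, at 44.1 and 141 TPM in replicates 1 and 2 (92.4 ± 68.3 TPM). Slc2a1 encodes GLUT1, the basal transporter of fetal tissues and red cells, and was at 17.3 TPM in each library (1398 and 1191 counts). Slc2a4 was the higher of the pair in both hearts, by 2.54 and 8.12 fold, and the change in that ratio lay in Slc2a4 since Slc2a1 hardly differed. Slc2a3, which encodes GLUT3, the transporter typical of neurons, had 2 and 1 counts. The summed level of neuronal and Schwann cell markers was 1.24 and 0.39 TPM.

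Hexokinase phosphorylates glucose so that it stays in the cell. Hk1, the form of most tissues, was at 171 and 66.4 TPM (119 ± 74.1 TPM), and Hk2, the insulin-regulated muscle form, was at 46.03 and 5.92 TPM (26.0 ± 28.4 TPM). Both were lower in replicate 2, and Hk1 led in each library, with 78.8% and 91.8% of the step. For Hk2, 71.8% and 89.1% of this level lay on a 594 nt transcript without a coding sequence, Hk2-202, which held 528 of 2797 counts in replicate 1 and 71.5 of 167 in replicate 2. On protein-coding transcripts alone Hk2 was at 13.0 and 0.644 TPM, so that Hk1 took 92.9% and 99.0% of hexokinase. Part of the Hk1 level also lay on a short transcript, Hk1-212, of 896 nt and annotated as coding. It held 0.04% and 31.4% of the Hk1 level, on 456 of 5529 counts in replicate 2. The leading transcript, Hk1-202, was at 134 and 43.7 TPM.

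Gpi1, which turns glucose 6-phosphate into fructose 6-phosphate, was at 638 and 729 TPM (684 ± 64.7 TPM). Phosphofructokinase 1, the committed and most regulated step, drew on all of its forms. The muscle form Pfkm was at 101 and 135 TPM, the liver form Pfkl at 66.0 and 68.7 TPM, and the platelet form Pfkp at 83.3 and 55.1 TPM. Their sum hardly moved, at 250 and 259 TPM (254 ± 5.93 TPM), while Pfkm went from 40.3% to 52.1% of it and Pfkp from 33.3% to 21.3%. No pair of these forms was 2-fold apart in both libraries. Exons of Pfkp overlap those of Pitrm1 on the other strand, which was at 38.2 and 37.8 TPM, and strand was not used to separate them as far as the sources used here say.

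The bifunctional enzymes of the Pfkfb family make and remove fructose 2,6-bisphosphate, the activator of phosphofructokinase 1. The heart form Pfkfb2 was at 2.13 TPM (203 counts) and 17.95 TPM (1593 counts). All of its counts in replicate 1 lay on a transcript with a retained intron, Pfkfb2-209, and 99.75% of its level in replicate 2 on the coding transcript Pfkfb2-204. Yod1, whose exons overlap those of Pfkfb2 on the other strand, moved alongside, at 1.66 and 16.2 TPM, and its part in the Pfkfb2 difference was not tested. Pfkfb1, the form of liver and skeletal muscle, had 7 and 106 counts, those of replicate 2 all on a transcript without a coding sequence. Pfkfb3, the form that low oxygen induces, had 1 and 0 counts.

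The splitting of the sugar was among the most abundant steps. Aldoa, the muscle aldolase, was at 3625 and 3034 TPM and ranked 18 among protein-coding nuclear genes, while the brain form Aldoc was at 44.7 and 30.05 TPM. The log2 ratio of TPM + 1 between them was 6.31 and 6.61 (6.46 ± 0.21), the steadiest of the large isozyme ratios with both genes above 5 TPM. Tpi1, which interconverts the resulting trioses, was at 896 and 1335 TPM (1116 ± 310.0 TPM).

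Gapdh oxidises glyceraldehyde 3-phosphate and yields NADH, and was at 2500 and 3802 TPM (3151 ± 920 TPM, rank 21). A 483 nt transcript without a coding sequence, Gapdh-208, carried 41.0% and 43.8% of that level on 12718 and 17531 of the gene's counts. On coding transcripts Gapdh was at 1472 and 2063 TPM. The order of Gapdh and Aldoa therefore depended on the transcripts counted: Gapdh was above Aldoa in replicate 2 over all transcripts, and below it in both libraries on coding transcripts.

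Pgk1, the first enzyme of the pathway to make ATP, was at 588 and 467 TPM. Its processed copy Pgk1-rs7, at chr12:10898986-10900240 on the minus strand of mm10, had no differing base over 1255 aligned bases and was assigned 135 and 145 TPM. Reads within that stretch cannot be told apart by sequence, and Pgk1 plus its copies came to 723 and 612 TPM (668 ± 78.5 TPM).

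Phosphoglycerate mutase was almost wholly of the muscle form. Pgam2 was at 1688 and 1423 TPM (1556 ± 187 TPM) and Pgam1, the form of brain and most other tissues, at 23.2 and 108 TPM (65.6 ± 60.0 TPM). The ratio was 72.7 fold in replicate 1 and 13.2 fold in replicate 2, a difference that lay in Pgam1, which was 4.65 fold higher in replicate 2. In expected counts, which do not correct for length, Pgam2 held 96.9% and 84.9% of the pair.

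Enolase was split between the general form Eno1, at 1384 and 1023 TPM, and the muscle form Eno3, at 1755 and 932 TPM. Eno3 held 55.9% of the step in replicate 1 and 47.7% in replicate 2, so the form in the lead changed between the libraries. A 773 nt coding transcript, Eno1-205, carried 281 and 193 TPM of the Eno1 level. Without it Eno1 was below Eno3 in both libraries, so in TPM the change of lead depended on that transcript. In expected counts, which do not correct for length, Eno1 held 48.9% and 57.7% of the step. Eno2, the neuronal form, had 2 and 1 counts.

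Pkm was at 1574 and 1418 TPM (1496 ± 110 TPM), nearly all as M1. The M1 transcript was at 1377 and 1346 TPM (1362 ± 22.2 TPM) and the M2 transcript at 197 and 72.4 TPM (135 ± 88.2 TPM). M1 made up 87.5% and 94.9% of Pkm, on 103774 and 86030 counts, beside 14856 and 4627 counts for M2. The ratio of M1 to M2 was 6.99 in replicate 1 and 18.6 in replicate 2. M1 differed by 1.02 fold between the libraries and M2 by 2.72 fold, so the change in the ratio lay in M2.

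The genes of RNA-binding proteins known to act on the choice between these exons were read in both libraries. Ptbp1, which represses the M1 exon, was at 107 and 43.4 TPM, and Hnrnpa1, which acts in the same way, at 351 and 80.0 TPM. Hnrnpa2b1, a further repressor of the M1 exon, was at 276 and 303 TPM and Srsf3, which promotes use of the M2 exon, at 176 and 272 TPM. Of these 4 genes, 2 (Ptbp1 and Hnrnpa1) were over 2-fold lower in replicate 2, the library with less M2, while Hnrnpa2b1 and Srsf3 were higher. Such differences were common: 26.9% of all genes tested were over 2-fold lower in replicate 2. At 30 to 300 TPM, the range of these 4 genes, 37.6% of all genes were over 2-fold apart in either direction. The part of these 4 genes in the M2 difference was not tested.

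**Figure D2:**
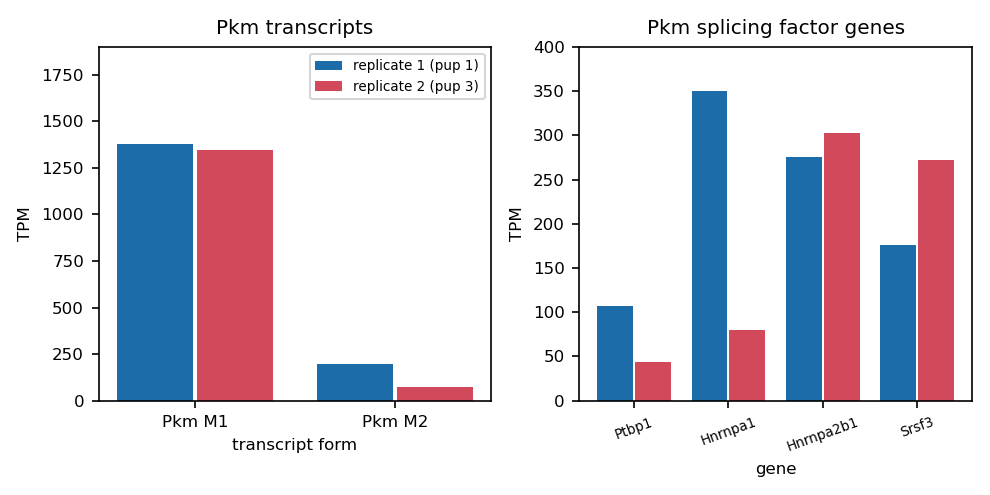
TPM of the M1 and M2 transcripts of Pkm (left) and of the genes of 4 splicing factors (right), with 1 bar for each library and no error bar. M1 stands at 1377 and 1346 TPM and M2 at 197 and 72.4 TPM, and Hnrnpa1 has the widest gap on the right, at 351 and 80.0 TPM.

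Lactate dehydrogenase was the most abundant step, at 4739 and 4842 TPM summed (4791 ± 72.8 TPM). Ldha encodes the subunit typical of skeletal muscle and Ldhb that typical of adult heart, and the subunits combine into tetramers. Ldha was at 1991 and 2432 TPM and Ldhb at 2748 and 2410 TPM. Ldhb held 58.0% of the step in replicate 1 and 49.8% in replicate 2, where the subunits were nearly level. With pseudogene copies added, Ldhb came to 2781 and 2448 TPM and Ldha to 1992 and 2433 TPM. The order in replicate 2 thus depended on the copies, and with them Ldhb was the higher in both libraries. In expected counts, which do not correct for length, Ldhb held 52.8% and 44.5% of the step.

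Slc16a3 encodes MCT4, a proton-linked carrier that exports lactate from glycolytic muscle, and was at 21.1 TPM (1312 counts) and 2.73 TPM (317 counts). The leading transcript differed, Slc16a3-201 in replicate 1 and Slc16a3-208 in replicate 2. Slc16a1, which encodes the carrier MCT1 and is not among the 33 genes, was at 31.5 and 66.7 TPM, above Slc16a3 in both libraries. Bsg, which encodes the chaperone that both carriers need at the membrane, was at 974 and 1006 TPM.

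The glycerol phosphate enzymes pass electrons from cytosolic NADH towards the respiratory chain and link glycolysis to lipid synthesis. Gpd1l was at 21.2 and 27.2 TPM (24.2 ± 4.30 TPM), while the related cytosolic enzyme Gpd1 had 0 counts in both libraries. With 3 counts per library taken as the limit that a count of 0 allows, Gpd1l was at least 344-fold higher than Gpd1 in replicate 1 and at least 376-fold higher in replicate 2. Gpd2, the mitochondrial enzyme of the shuttle, had 1604 counts in replicate 1 (8.99 TPM) and 0 in replicate 2, where the limit from counting alone is 0.0386 TPM. This all-or-none pattern was common at that level: of the 7021 genes averaging 1 to 30 TPM, 40.1% had under 3 counts in 1 library, beside 1 of the 7 pathway genes in that range.

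The pyruvate dehydrogenase kinases inactivate the complex that takes pyruvate into the mitochondrial oxidation pathway. Pdk2, the widely expressed form, led in both libraries at 127 and 194 TPM (160.4 ± 47.2 TPM), with 47.6% and 50.8% of the step. In expected counts, which do not correct for length, Pdk1 led in replicate 1, with 9178 counts beside 8540 for Pdk2. Pdk1, which low oxygen induces, was at 85.2 and 10.8 TPM. Pdk3 was at 18.6 and 47.5 TPM. Pdk4, which fasting and fatty acids induce in heart, was at 35.9 and 130 TPM. The kinases other than Pdk2 thus exchanged places: Pdk1 was second in replicate 1 and last in replicate 2, and Pdk4 followed Pdk1 in replicate 1 and was second in replicate 2.

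Part of this lay on transcripts without a full coding sequence. On coding transcripts Pdk1 was at 40.2 and 10.7 TPM, and Pdk4 at 32.9 and 70.4 TPM, since 45.7% of the Pdk4 level in replicate 2 lay on a 412 nt transcript with a retained intron. Both differences kept their direction on coding transcripts, at 3.77 fold for Pdk1 and 2.14 fold for Pdk4.

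**Figure D3:**
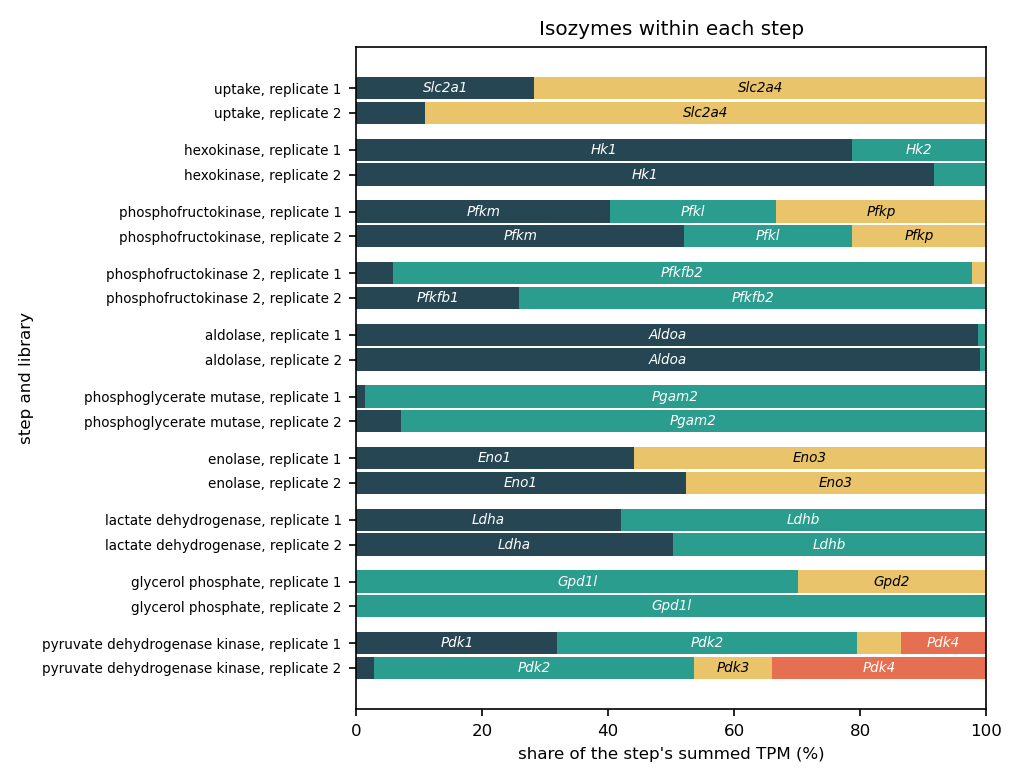
Share of each step's summed TPM held by its isozymes, in percent, with 1 bar for each library and the gene name on segments of 11% or more. Aldolase and phosphoglycerate mutase are nearly 1 colour, enolase and lactate dehydrogenase divide near the middle, and the glycerol phosphate and kinase bars change clearly between libraries.

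All 25 pairs of isozymes within a step were compared on log2(TPM + 1). In 15 of them both genes averaged at least 5 TPM, and 5 of these differed by 2-fold or more in the same direction in both libraries. These 5 were Slc2a4 over Slc2a1 (2.12 ± 1.17), Hk1 over Hk2 (2.58 ± 1.00), Aldoa over Aldoc, Pgam2 over Pgam1 (4.92 ± 1.71) and Pdk2 over Pdk3 (2.36 ± 0.49). Another 8 pairs met the rule with a partner below 5 TPM, which made 13 in all. Over all genes, the SD of a single library on this log2 scale was 0.56 for means of 300 TPM or more. It was 1.09 for 30 to 300 TPM and 2.13 for 5 to 30 TPM. The ratios of Aldoa and Pgam2 to their partners exceeded each of these in both libraries. The other pairs of the 5 fell below 2.13 in 1 library. In replicate 1 Slc2a4 over Slc2a1 was 1.30 and Hk1 over Hk2 1.87, and in replicate 2 Pdk2 over Pdk3 was 2.01. These SDs are of single genes, while a ratio carries the spread of both of its genes. The sign of the ratio differed between libraries for 5 pairs: Pfkp over Pfkl, Eno3 over Eno1, Ldhb over Ldha, Pdk1 over Pdk3 and Pdk4 over Pdk1. For Ldhb over Ldha the ratio was 0.46 in replicate 1 and -0.013 in replicate 2, so that sign rests on a near tie. Pfkfb2 over Pfkfb1 and Pfkfb2 over Pfkfb3 did not meet the rule on coding transcripts alone, and Gpd1l over Gpd2 did not in counts scaled to 1000000 per library. In turn, Pdk2 over Pdk1 (1.57 and 4.05) and Pdk2 over Pdk4 (1.85 and 1.44) met it on coding transcripts, and Pdk4 over Pdk3 (1.74 and 1.41) met it in counts.

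Along the 12 steps from uptake to lactate, summed levels spanned 43.7 fold between the lowest mean, uptake (61.4 and 158 TPM), and the highest, lactate dehydrogenase. The 3 steps that set the entry of glucose into the pathway, namely uptake, hexokinase and phosphofructokinase 1, were each at 259 TPM or less in both libraries. The 9 other steps were each at 467 TPM or more. Uptake and hexokinase were the 2 steps that differed by more than 2-fold between libraries, uptake being higher in replicate 2 and hexokinase (217 and 72.3 TPM) lower. The largest difference among the 9 others was 1.61 fold, for enolase. These sums cover the listed genes, and transcript level is not enzyme activity.

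**Figure D4:**
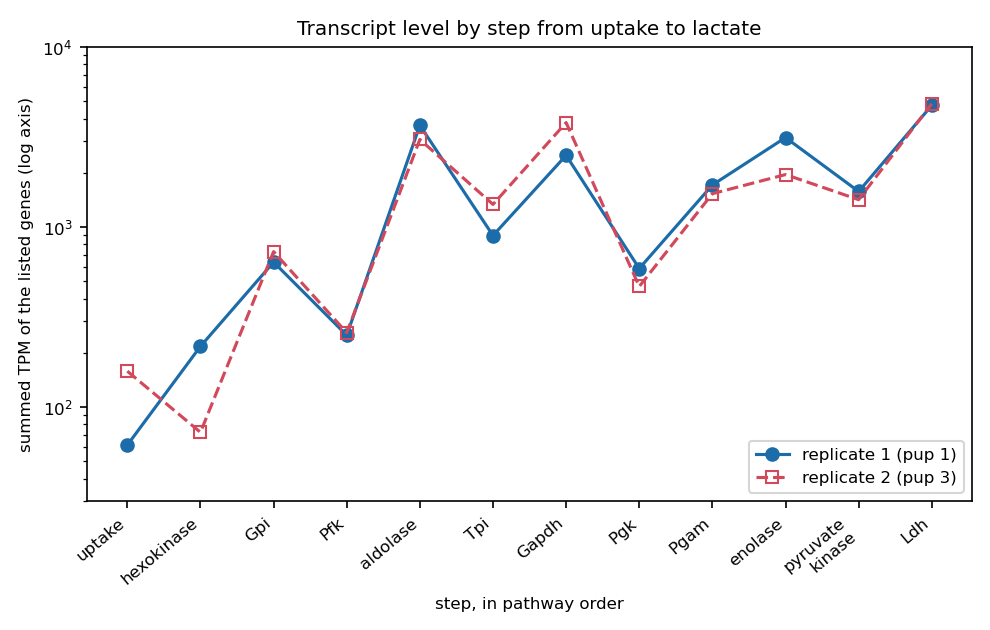
Summed TPM of the listed genes at each of 12 steps in pathway order on a log axis, with filled circles for replicate 1 and open squares for replicate 2. Uptake, hexokinase and phosphofructokinase lie at or below 259 TPM and every other step at or above 467 TPM in both libraries.

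Among single genes the order of the most abundant was partly resolved. Aldoa, Gapdh, Ldhb and Ldha formed a leading set in which each gene's pair of values overlapped those of the next. The place of Gapdh rests on its transcript without a coding sequence, since on coding transcripts both of its values, 1472 and 2063 TPM, were below those of Ldhb. Ldha did not overlap Pgam2, the next below. Pgam2, Pkm, Eno3, Eno1 and Tpi1 again overlapped from each to the next. Gpi1 lay below Tpi1 in both libraries. Pgk1 lay below Gpi1 in both, but with its copies added, at 723 and 612 TPM, it was above Gpi1 in replicate 1.

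Between the hearts, 9 of the 27 genes that averaged at least 5 TPM lay over 2-fold apart on log2(TPM + 1), beside 54.6% of all 8266 genes tested. Higher in replicate 2 were 5, Slc2a4, Pgam1, Pfkfb2, Pdk3 and Pdk4, beside 27.7% of all genes. Lower in replicate 2 were 4, Hk1, Hk2, Slc16a3 and Pdk1, beside 26.9% of all genes. Level has to be taken into account, since the pathway genes are more abundant than most. At 300 TPM or more 0 of 11 were apart, beside 12.8% of all genes. At 30 to 300 TPM 6 of 11 were, beside 37.6%. At 5 to 30 TPM 3 of 5 were, beside 68.4%. With so few genes in each range, nothing particular to the pathway is read from these counts. The median log2 ratio was -0.0015 for the 27 genes and 0.0064 for all genes tested.

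**Figure D5:**
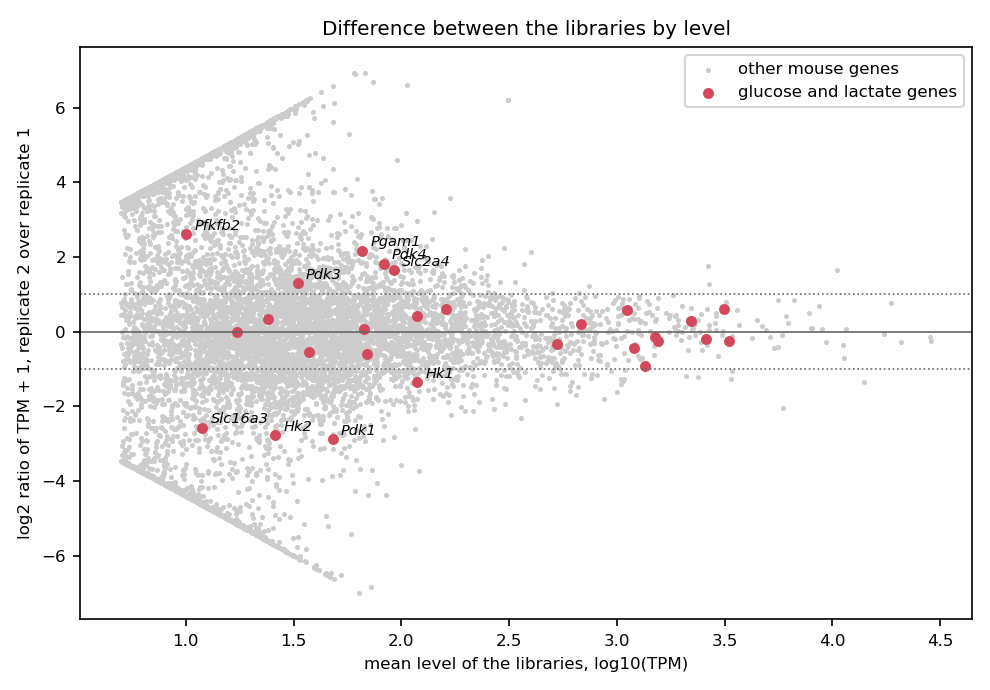
Log2 ratio of TPM + 1, replicate 2 over replicate 1, against the mean level on a log10 axis for 8266 genes, with the 27 pathway genes in red, the 9 beyond 2-fold named and dotted lines at 2-fold. The spread of all genes narrows with level, and the 11 pathway genes above 300 TPM lie within the dotted lines.

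Levels of cell type markers in each library are given for comparison. Each of the cardiomyocyte markers was higher in replicate 2, from 1.05 fold for Tnnt2 to 3.14 fold for Myl2. Myl2, the ventricular light chain, was at 5082 and 15945 TPM. Fibroblast markers summed to 1127 and 960 TPM, white cell markers to 145 and 168 TPM with Ptprc and Cd68 at 0, and brown fat markers, of which Ucp1 and Adipoq were at 0, to 90.6 and 54.8 TPM. Within the white cell sum S100a9 was at 0 and 75.3 TPM, while Lyz2, S100a8 and Csf1r were lower in replicate 2. Genes that muscle expresses, of which some are named here, differed in direction and size. Slc2a4 (3.19 fold), Pdk4 (3.61 fold) and Pfkm (1.34 fold) were higher in replicate 2, and Hk2 (7.78 fold) and Eno3 (1.88 fold) were lower. Pgam2 and Aldoa (1.19 fold each) and Ckm (1.12 fold, 4488 and 3996 TPM) were slightly lower. The part of cell makeup in the differences was not tested.

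Other genes of the pathway came from a list of 29. At 0 counts in both libraries were 17, among them Slc2a2 and Pklr, which liver expresses, the testis forms Gapdhs, Pgk2 and Ldhc, and the gluconeogenic Fbp1 and Fbp2. There were 8 at 1 TPM or more in both. Mpc1 and Mpc2, the subunits of the carrier that takes pyruvate into mitochondria, were at 693 and 565 TPM and at 402 and 546 TPM. Of the 12 genes of this list that averaged at least 5 TPM, 6 were over 2-fold higher in replicate 2 and 2 lower, beside the 54.6% of all genes that were apart in either direction.

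Of 19 regulators of the pathway, 14 were read in both libraries. Txnip, which restrains glucose uptake and is induced by glucose, was the highest of those named here, at 483 and 681 TPM. Hif1a, the oxygen-sensitive activator of glycolytic genes, was at 33.7 and 37.8 TPM, while its relative Epas1 was at 55.9 and 17.6 TPM and Egln3, an oxygen-sensing hydroxylase, at 13.5 and 3.04 TPM. Akt1 and Akt2, the kinases that relay the insulin signal, went in opposite directions, at 56.6 and 9.23 TPM and at 43.8 and 91.0 TPM. Ppara, a nuclear receptor that drives fatty acid genes and Pdk4, was at 1.83 and 30.3 TPM, and its coactivator Ppargc1a at 109 and 43.6 TPM. Of the 15 regulators that averaged at least 5 TPM, 5 were over 2-fold higher in replicate 2 and 5 lower, beside 27.7% and 26.9% of all genes.

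The transcript models in use were mostly shared by the hearts. Of 31 genes with 2 or more listed transcripts, 25 had 50 counts or more in both libraries, and 22 of these had the same leading transcript. The 3 others were Pfkp, Pfkfb2 and Slc16a3. For Pfkp the leading transcript was Pfkp-201 with 59.1% in replicate 1 and Pfkp-207 with 53.1% in replicate 2, both coding. Of the 27 genes read in both libraries, 21 had 90% or more of their TPM on coding transcripts in both. The 6 others were Hk2, Pfkfb2, Gapdh, Pdk1, Pdk3 and Pdk4.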

How the data were processed

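Gene expression was measured in 2 libraries, and the authors deposited 1 gene and 1 transcript table for each, with no pooling. Expected counts stand in each table, per the file headers: these are estimated reads per feature and need not be whole. TPM and posterior means were deposited beside them. The deposited transcript tables also give each transcript's percent of its gene. The deposited text notes name mm10 and GENCODE M4. Which aligner and quantifier were run is not given in the sources used here.

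TPM was rescaled to 1000000 over the 43346 mouse genes, leaving out 97 spike-in rows and 26248 rows under a bare number. Names, transcripts and positions came from GENCODE M21, which 42462 genes and all 33 pathway genes matched. Gene models can differ between these releases. A gene counted as read from 1 TPM, isozyme pairs apart at 2-fold or more in 1 direction in both libraries on log2(TPM + 1), and libraries apart at over 2-fold for genes averaging at least 5 TPM. Folds on that scale understate the change of low genes, and the folds of single genes are of TPM itself. Both libraries form 1 group, so no test was made. The members, lists and tests were chosen with earlier results of these data known. All 33 genes are named. Pseudogene copies were found with minimap2 2.31-r1302 at 90% identity over 50% of their length or more and are named from a mean of 10 TPM. Isozymes were aligned with Biopython 1.88. As alternatives, libraries were scaled by edgeR 4.0.16 (TMM) or DESeq2 1.42.0 (size factors) after rounding the expected counts. Calculations used Python 3.11.15, pandas 2.3.3 and R 4.3.3, and the code for comparing libraries was run on simulated counts. Those counts held counting error and planted changes only. They left out differences from amplification, so the run does not show how often real libraries differ without a change. Reads carry no molecular identifiers, so limits from counts cover counting error only.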

Additional observations from a re-analysis of the deposited data

Results flagged for a closer look

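Some signal lay on pseudogene copies of the pathway genes, outside the genes compared. There were 164 copies of 8 of the genes, and those with a mean of 10 TPM or more are given here, with mean TPM over the 2 libraries. The copy of Pgk1, Pgk1-rs7, averaged 140 TPM. The Eno1 copy Gm4735 averaged 26.4 TPM and differed from Eno1 at 5 of 1302 aligned bases. The Ldhb copy Gm5514 averaged 35.5 TPM on 221 and 215 counts.

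Gapdh had 145 copies, which summed to 226 and 315 TPM, or 8.28% and 7.65% of Gapdh and copies together. Those named by level were Gm10359 at 16.2 TPM, Gm12070 at 26.4 TPM, Gm13394 at 25.3 TPM, Gm14760 at 28.8 TPM and Gm5559 at 24.9 TPM. Each differed from Gapdh at 0 or 1 of 999 to 1002 aligned bases, so the split between gene and copy is an estimate. Whether these copies are transcribed was not tested.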

How the results depend on the processing

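The share of TPM on the 33 genes, 2.02%, became 2.38% of expected counts, 1.96% of deposited TPM over all rows, 2.07% with pseudogene copies added and 1.86% on protein-coding transcripts alone. The last of these settings was chosen after seeing the data. The genes read in both libraries numbered 25 to 28 under every setting run, and leaving out each replicate gave 28 and 28. The pairs 2-fold apart numbered 12 to 13, and 17 to 19 when 1 library alone had to pass. None of the 13 pairs reversed in the mean of the libraries. In single libraries Pfkfb2 over Pfkfb1 did on coding transcripts, at -0.18 in replicate 1 and 4.24 in replicate 2. In TPM, 5 of the other 12 changed sign with the library. The members changed more than the count: coding transcripts lost 2 pairs and gained 2, counts lost 1 and gained 1, and a rule of 2 SD lost 3 (Slc2a4 over Slc2a1, Pfkfb2 over Pfkfb3 and Gpd1l over Gpd2) and gained 2 (Pfkm over Pfkl and Pdk4 over Pdk3). Of the 13 pairs, 9 passed under every setting run that kept both libraries. The genes apart between libraries numbered 9 to 11. The median ratio moved to -0.07 with TMM factors and -0.10 with DESeq2 size factors, which shifted all genes by -0.07 and -0.11. The M1 share of Pkm was 91.2% in each unit, and 87.5% and 94.9% in single libraries. Both of the 2 listed Pkm transcripts are coding and 2432 nt long. TPM, counts and coding transcripts alone therefore had to give the same share. Leaving out a replicate gives no difference between libraries, so it was not run there. No paired analysis was possible because the labels give 1 group. With 2 libraries, SDs are themselves uncertain, and a transcript lost before amplification cannot be told from one that was not there.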
